A study of Mus musculus with 16 samples.

Results

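The hearts compared here are those of 2 inbred mouse strains 2 weeks after a permanent ligation of a coronary artery, 4 of DBA/2J and 4 of C57Bl6/N, which make up 8 of the 16 libraries of the study. All genes were tested from the counts of these libraries, with DBA/2J set against C57Bl6/N. The mice were females of 3 months at the start, and PolyA RNA of 1 mouse went into each library. The labels' descriptions call the ligated tissue remote, and every sample is labelled as septum and left ventricle, whereas the series' design description speaks of septum together with right ventricle. Which of these was sequenced is not settled by the sources used here. The other 8 libraries are untreated hearts, 4 of each strain, with no sham operation. The strain field of the labels is the same for all C57Bl6/N hearts, but the sample titles name the untreated ones C57Bl-6NCR and the ligated ones C57Bl-6N, and whatever these names distinguish cannot be told apart from ligation. Without a sham operation, the operation and the infarct cannot be told apart in any comparison with them.

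Ligation of a coronary artery kills the muscle that the artery feeds. Monocytes and macrophages then clear the dead tissue, fibroblasts lay down a scar of collagen, and the surviving muscle away from the scar takes on more work and often turns on genes of the fetal heart. Complement, cytokines and matrix proteases take part in the clearance and in the scar. The size of these reactions and the later function of the heart are known to depend on the inbred strain. DBA/2J and C57Bl6/N differ at many loci, among them the major histocompatibility complex (MHC), whose class I and class II molecules present peptides to T cells.

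The ligated libraries held 15067621 to 22010830 counts in DBA/2J and 13724074 to 20948416 counts in C57Bl6/N, and the untreated ones 4922411 to 17013017 counts. Levels are CPM, counts divided by a library total that is scaled for composition, and where 4 values are listed they stand in the order of libraries 1, S40, S41 and S42 for DBA/2J and 1 to 4 for C57Bl6/N. Ventricular muscle genes were abundant in all 8 ligated libraries. Per kilobase of transcript, the ventricular myosin light chain Myl2 stood at 8847 to 10198 CPM in DBA/2J and 10337 to 14784 CPM in C57Bl6/N, and the atrial light chain Myl7 at 4.84 to 9.62 and 1.12 to 22.4 CPM. The highest of these Myl7 values belongs to C57Bl6/N library 3, which was also the highest in the atrial gene Sln. The first principal component of the 8 libraries held 69.7% of the variance and put the 4 DBA/2J libraries on one side and the 4 C57Bl6/N libraries on the other. Since the tissue was not sorted, fewer cells of a type and less RNA per cell cannot be told apart in any result below. DBA/2J reads were counted against a genome of C57BL/6 origin, and the effect of this on DBA/2J counts was not tested for any gene. The genes marked below as having near-identical copies are uncertain because of the copies as well.

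Of 13504 genes tested, 1434 were higher in DBA/2J than in C57Bl6/N after ligation, which is 10.6% of all, and 1190 were lower, 8.81%, at an adjusted p under 0.05 in the quasi-likelihood test of edgeR. Together 19.4% of genes were called. The difference was at least 2-fold for 540 of the higher genes and 311 of the lower ones, and the median size of a called difference was 0.70 on the log2 scale. In 2437 of the 2624 called genes the 4 values of one strain lay wholly above the 4 values of the other. The same was true of 30.7% of all tested genes. When libraries were scaled by their totals, without correction for composition, 2169 genes were higher and 764 lower and the median of all genes moved from 0.01 to 0.11 (log2). The scaling factors were 1.07 to 1.10 in DBA/2J and 0.98 to 1.06 in C57Bl6/N. A fit of the 8 ligated libraries alone, which also changes the genes that pass the filter and the scaling, called 2097 genes higher and 2065 lower (31.2% of those tested), and the fit without the 3 shallowest untreated libraries called 2220 and 2122 (31.7%), against the 1434 and 1190 of the fit of all 16 libraries.

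Most of the strain difference in ligated hearts was also present in hearts that had not been operated on. In the 8 untreated libraries, which share no library with the ligated comparison, 1696 genes (12.6%) were higher in DBA/2J and 1339 (9.92%) were lower. Both comparisons come from 1 fit of all 16 libraries and share its estimate of each gene's spread, so their calls are not independent. A fit of the 8 untreated libraries alone called 930 genes higher and 682 lower. A total of 1814 genes was called in the same direction in both comparisons, which is 69.1% of the genes called after ligation and 59.8% of those called in untreated hearts, and no gene was called in opposite directions. Of the 851 genes with a called difference of at least 2-fold after ligation, 700 were also called in untreated hearts. The difference between the strain effects of ligated and untreated hearts, tested as an interaction, passed the threshold for 0 of 13504 genes with edgeR (percent called 0), with 782 genes at an unadjusted p under 0.05. The same interaction gave 17 genes with DESeq2, 0 with limma-voom and 1 with edgeR without the 3 shallowest untreated libraries. A strain difference that was called in ligated hearts and not in untreated ones, as in 810 genes, is therefore not shown to differ between them.

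**Figure D1:**
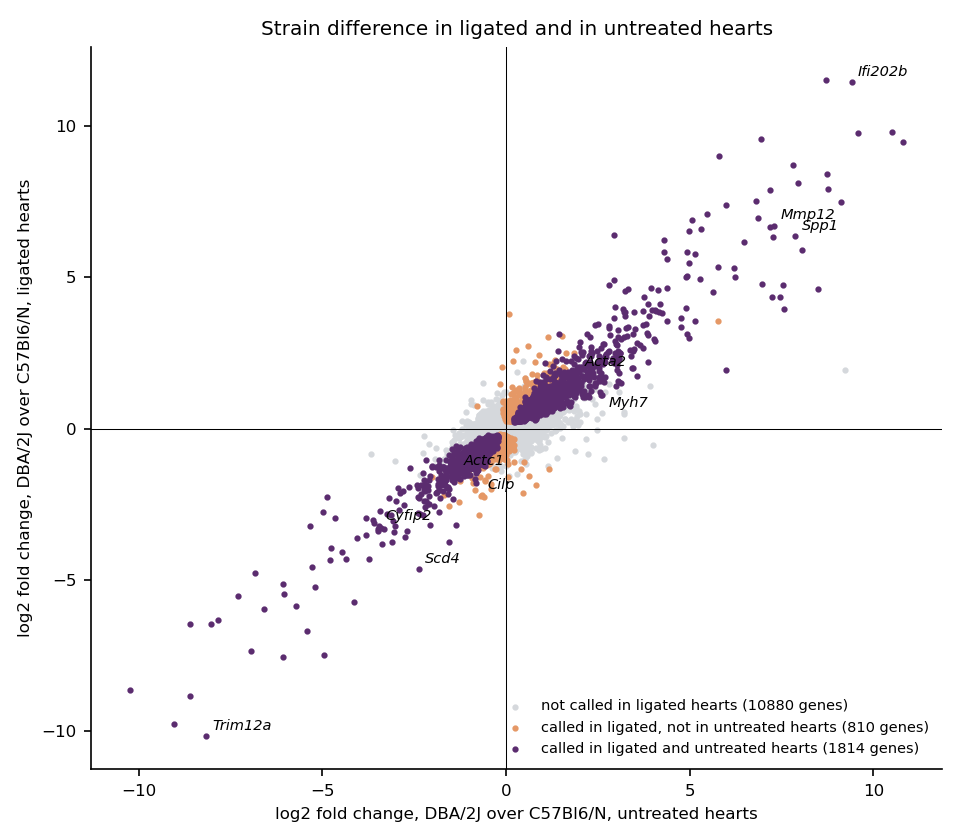
Log2 fold change of DBA/2J over C57Bl6/N for each of 13504 genes, in untreated hearts (horizontal axis) and in ligated hearts (vertical axis), 4 libraries a group. The 1814 genes called in ligated and untreated hearts lie along the diagonal, from Trim12a at the lower left to Ifi202b at the upper right; fitted values of genes with no count in one strain depend on the prior count.

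The largest differences were genes read in one strain and not, or hardly, in the other. The rule for naming genes asked for 2 CPM in the strain with more and for no overlap between strains, and under it the 10 called genes with the largest positive fold change were Ifi202b, Mrap2, Mcpt2, Hamp2, C4a, C1rb, H2-Q1, H2-Q2, C1s2 and Serpina3h. Ifi202b (chr1:173962569-173982844 on mm10), an interferon-inducible gene of the p200 family, stood at 25.2, 21.8, 24.6 and 25.7 CPM in DBA/2J and at 0 counts in all 4 C57Bl6/N libraries. Against a floor of 3 counts over the group, it was at least 541-fold higher in DBA/2J (adjusted p = 1.15e-09). Mrap2, which encodes an accessory protein of melanocortin receptors, was at least 170.3-fold higher (8.74, 12.3, 4.79 and 5.52 CPM against 0 counts, adjusted p = 8.92e-06). Mcpt2, a mast cell protease, was at least 166-fold higher (7.29, 6.96, 7.25 and 8.49 CPM against 0 counts, adjusted p = 2.80e-08). These 3 genes were called in untreated hearts too.

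Hamp2, of the hepcidin family of iron regulators, had 21.4, 16.2, 13.5 and 15.6 CPM in DBA/2J and 1 count in 1 of the C57Bl6/N libraries, a ratio of 1125 with a 95% interval of 202 to 44482, which covers counting error only (adjusted p = 2.90e-09). Complement supplied 3 of the 10 genes. C4a, a copy of C4, was at least 98.1-fold higher (4.84, 6.84, 2.90 and 3.46 CPM against 0 counts, adjusted p = 4.97e-07). C1rb, a copy of the protease C1r, was at least 64.7-fold higher (3.23, 3.30, 2.71 and 2.43 CPM against 0 counts, adjusted p = 1.65e-05). For C1s2, a copy of C1s, 7.74, 6.78, 6.62 and 6.60 CPM in DBA/2J stood against 2 counts in C57Bl6/N, a ratio of 232 with a 95% interval of 63.97 to 1922 (adjusted p = 6.32e-09). All 3 were read in each DBA/2J heart. H2-Q1 and H2-Q2, class I genes of the MHC on chromosome 17, had 448 and 160 counts in DBA/2J against 1 and 0 in C57Bl6/N (adjusted p = 6.73e-07 and 3.36e-06). Serpina3h, a serine protease inhibitor, had 14.8, 13.98, 18.7 and 18.3 CPM in DBA/2J against 0.0904, 0.149, 0 and 0.132 CPM in C57Bl6/N (log2 fold change 7.38 ± 0.37 SE, adjusted p = 1.01e-10). C4a, C1rb, C1s2, H2-Q1, H2-Q2, Hamp2 and Serpina3h all belong to families of near-identical copies, so that reads may be divided among copies in a way that differs between the strains. In total 17 called genes had 0 counts in the C57Bl6/N ligated libraries and 5 had 0 counts in the DBA/2J ones.

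At the other end stood Trim12a, Olfr1033, Fggy, Nxpe4, Scd4, Trim30d, Rab6b, Trpm3, Srp54a and Pttg1. Trim12a (chr7:104299897-104315495), of the TRIM family, had 10.7, 10.2, 10.7 and 8.11 CPM in C57Bl6/N and 0 counts in DBA/2J, at least 266-fold lower (adjusted p = 4.09e-10). Olfr1033, an olfactory receptor gene, and Fggy, which encodes a carbohydrate kinase, each had 1 count in the DBA/2J libraries together against 552 and 268 counts in C57Bl6/N. Their ratios, C57Bl6/N over DBA/2J, were 662 (95% interval 118 to 26202, adjusted p = 9.40e-11) and 321 (57.2 to 12745, adjusted p = 3.97e-09). Scd4, a stearoyl-CoA desaturase that puts a double bond into fatty acids, had 4.55, 12.1, 2.27 and 5.08 CPM in DBA/2J against 135, 115, 199 and 136 CPM in C57Bl6/N (log2 fold change -4.63 ± 0.45 SE, adjusted p = 6.45e-07). Pttg1, securin, which holds back the separation of sister chromatids until anaphase, had 3.60, 2.87, 3.34 and 3.30 CPM in DBA/2J against 40.5, 60.9, 51.2 and 50.5 CPM in C57Bl6/N (log2 fold change -3.94 ± 0.16 SE, adjusted p = 1.58e-11).

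The remaining genes of the 10 were at log2 fold changes from -5.12 to -4.06. Nxpe4 had 0.414 to 0.919 CPM in DBA/2J against 19.6 to 23.4 CPM in C57Bl6/N. Rab6b, a small GTPase of the Golgi, had 0.811 to 1.32 CPM in DBA/2J against 19.3 to 25.7 CPM in C57Bl6/N. Trpm3, a cation channel, had 0.207 to 0.532 CPM in DBA/2J against 6.99 to 8.35 CPM in C57Bl6/N. The adjusted p of these 3 genes was 1.58e-11, 2.45e-11 and 4.09e-10. Trim30d had 0.0967 to 0.248 CPM in DBA/2J against 3.10 to 6.18 CPM in C57Bl6/N (adjusted p = 8.19e-08). Srp54a, a subunit of the signal recognition particle, had 0.0483 to 0.379 CPM in DBA/2J against 3.07 to 4.42 CPM in C57Bl6/N (adjusted p = 3.25e-07). Both have near-identical neighbours and are uncertain.

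Abundant genes were taken with at least 50 CPM in the higher strain, a difference of at least 2-fold and no overlap between the strains. Of these, the 6 with the highest level in DBA/2J were Acta1, Acta2, C3, Ankrd23, Myl9 and Egln3, of which 3 encode actins or a myosin light chain. Acta2 (chr19:34240336-34255373), the smooth muscle actin that myofibroblasts also make, had 759, 684, 858 and 791 CPM in DBA/2J against 159, 164, 349 and 178 CPM in C57Bl6/N (log2 fold change 1.86 ± 0.23 SE, adjusted p = 8.84e-06), with C57Bl6/N library 3 highest in its group. Myl9, a regulatory light chain of smooth muscle and nonmuscle myosin, had 347, 322, 405 and 370.4 CPM in DBA/2J against 34.04, 26.02, 48.7 and 34.7 CPM in C57Bl6/N (log2 fold change 3.33 ± 0.18 SE, adjusted p = 4.04e-10). Beside these, of 15 pericyte and smooth muscle markers 3 were higher (Acta2, Myh11 and Smtn) and none was lower, against 10.6% and 8.81% of all genes. The median log2 fold change of these markers was -0.01 (0.09 with scaling by library totals). Lower markers numbered 2 without the 3 shallowest untreated libraries, in place of none. The median was 0.05 without C57Bl6/N library 1 and 0.01 without C57Bl6/N library 3. The adjusted p of Myh11 was 0.0183, and it was 0.0527 without C57Bl6/N library 1, 0.0728 without DBA/2J library S40. Egln3 and Ankrd23 belong to oxygen sensing and to the stretch response. Egln3, a prolyl hydroxylase that marks HIF for degradation, had 247, 239, 248 and 237 CPM in DBA/2J against 81.9, 95.2, 103 and 119 CPM in C57Bl6/N (log2 fold change 1.28 ± 0.11 SE, adjusted p = 1.47e-07). Ankrd23, a stretch-responsive ankyrin protein bound to titin, had 527, 518, 555 and 554 CPM in DBA/2J against 260.2, 258, 213 and 325 CPM in C57Bl6/N (log2 fold change 1.03 ± 0.14 SE, adjusted p = 3.68e-05).

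Actc1 (chr2:114047289-114052811), the actin of adult heart muscle, led the abundant genes that were lower in DBA/2J, with 5232, 4454, 4747 and 5010.1 CPM in DBA/2J against 11744, 12804, 14671 and 12545 CPM in C57Bl6/N (log2 fold change -1.41 ± 0.15 SE, adjusted p = 1.94e-06). Glul, glutamine synthetase, had 157, 169, 137 and 185 CPM in DBA/2J against 524, 599, 709 and 683 CPM in C57Bl6/N (log2 fold change -1.96 ± 0.15 SE, adjusted p = 4.78e-08). Ccnd2, cyclin D2, which drives entry into the cell cycle, had 187, 165, 194 and 186 CPM in DBA/2J against 463, 410.2, 448 and 443 CPM in C57Bl6/N (log2 fold change -1.27 ± 0.10 SE, adjusted p = 5.72e-08). The rule for these genes asked for no overlap between the strains. Tcap, the titin cap protein of the Z disc, is described with the sarcomere. The ribosomal protein genes Rplp0 (log2 fold change -1.87 ± 0.19 SE, adjusted p = 1.45e-06) and Rps2 (log2 fold change -1.28 ± 0.13 SE, adjusted p = 9.18e-07) were also in this set, but both have many processed copies in the genome and are uncertain.

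To see which cell types and pathways these genes belong to, 39 gene lists and a panel of 12 cardiac stress genes were counted. Lists whose called members were mostly higher in DBA/2J were complement (14 of 25 tested members higher), macrophage markers (22 of 43), cytokines and chemokines (16 of 31), matrix proteases and inhibitors (11 of 27) and fibroblast markers (7 of 18), against 10.6% of all genes. Adult sarcomere genes (11 of 20 lower), clock genes (8 of 19) and calcium handling and ion channel genes (12 of 34) were lower more often than the 8.81% of all genes. The counts are descriptions, since the lists were drawn up with earlier results of these data known. Genes with no count in 1 strain were also set at their bound, which left the median of each of the 40 lists as it was.

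**Figure D2:**
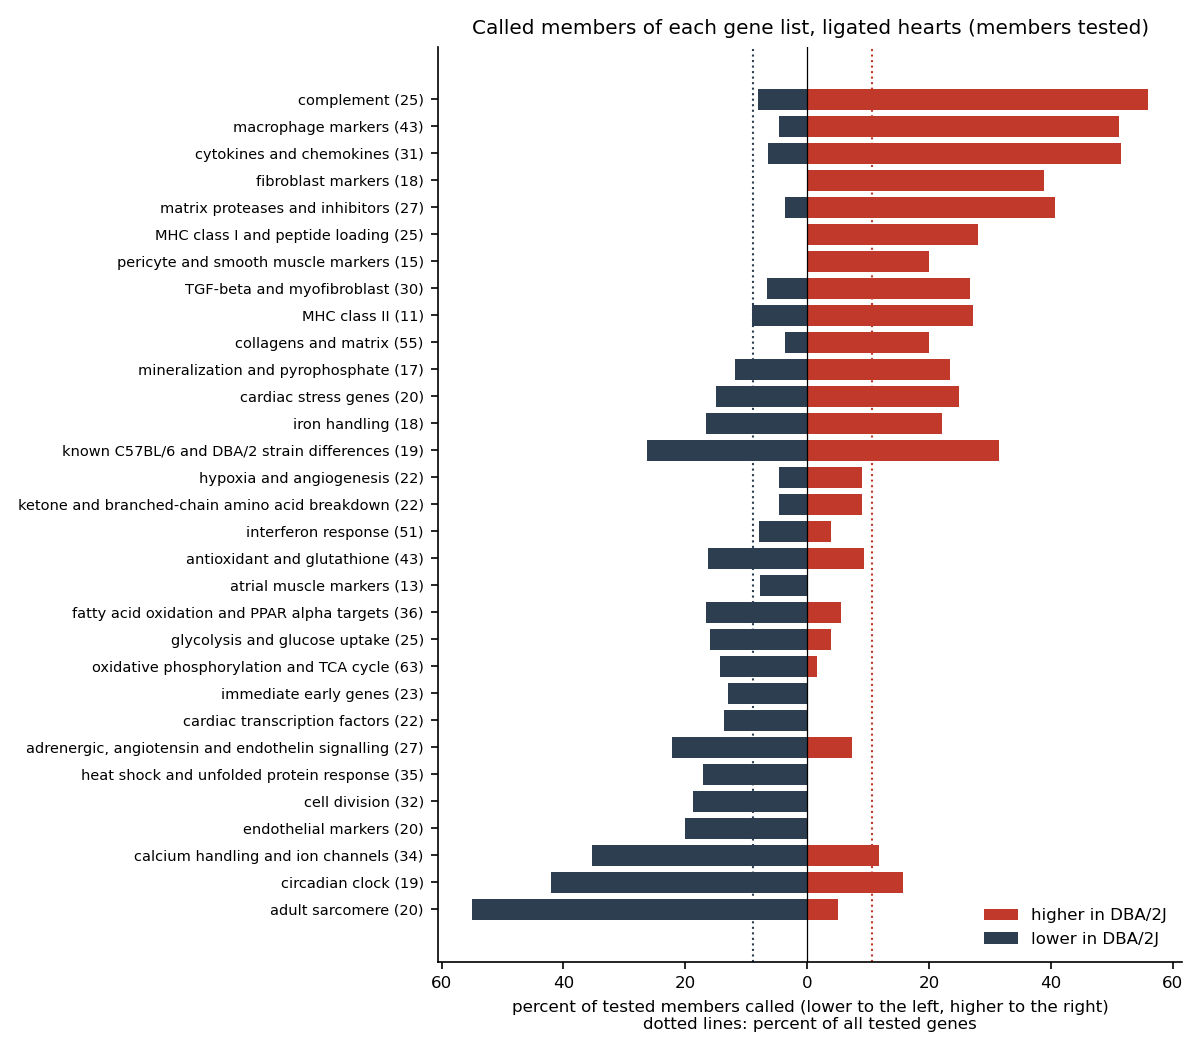
Percent of the tested members of each gene list called higher (right, red) or lower (left, dark) in DBA/2J than in C57Bl6/N ligated hearts, for lists with at least 10 tested members, with the number tested in brackets. The dotted lines mark all tested genes, 10.6% higher and 8.81% lower; complement, macrophage and cytokine genes reach furthest to the right and sarcomere genes furthest to the left.

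Many macrophage genes were higher in the ligated DBA/2J hearts. Of 43 tested markers 22 were higher and 2 lower, with a median log2 fold change of 0.57 against 0.01 over all genes, and their summed level was 990.5 to 1242 CPM in DBA/2J against 622 to 873 CPM in C57Bl6/N. None of the 43 was at 0 in either strain. Spp1 (chr5:104435111-104441053), osteopontin, a secreted matrix protein made by macrophages of injured tissue, had 96.6, 87.7, 131 and 75.3 CPM in DBA/2J against 1.54, 0.595, 1.98 and 0.395 CPM in C57Bl6/N (log2 fold change 6.37 ± 0.50 SE, adjusted p = 4.78e-08). Lgals3, galectin-3, a lectin of activated macrophages, had 29.4, 33.4, 26.9 and 21.3 CPM in DBA/2J against 5.61, 3.79, 4.59 and 3.16 CPM in C57Bl6/N (log2 fold change 2.67 ± 0.27 SE, adjusted p = 1.10e-06). The other members with the smallest p were lectin receptors of myeloid cells. Clec10a, a C-type lectin receptor, had 8.03, 7.08, 6.09 and 8.55 CPM in DBA/2J against 1.22, 1.93, 1.53 and 0.989 CPM in C57Bl6/N (log2 fold change 2.40 ± 0.21 SE, adjusted p = 1.49e-07). Clec4d, another receptor of that family, had 3.15, 2.87, 3.58 and 1.46 CPM in DBA/2J against 0.136, 0.520, 0.319 and 0.198 CPM in C57Bl6/N (log2 fold change 3.29 ± 0.39 SE, adjusted p = 6.17e-06). In these 4 genes each DBA/2J heart was above each C57Bl6/N heart.

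The 2 macrophage genes that were lower in DBA/2J encode receptors, and no other marker of the list was called lower. Mertk, a receptor for the uptake of dying cells, had 5.96, 7.14, 5.66 and 7.30 CPM in DBA/2J against 10.9, 11.2, 12.1 and 12.7 CPM in C57Bl6/N (log2 fold change -0.85 ± 0.13 SE, adjusted p = 9.43e-05), and the other was Cd163, the hemoglobin scavenger receptor. The same list gave 27 higher and 2 lower in untreated hearts, with a median of 0.85. Leaving out any 1 ligated library left 18 to 22 members higher. Lower members numbered 1 without C57Bl6/N library 3, in place of 2. Markers of other blood cells were mostly too rare to test: 3 of 7 neutrophil markers, 4 of 13 T and NK cell markers and 3 of 8 B cell markers were tested. Of these, S100a9 and Csf3r (neutrophils) and Il7r (lymphocytes) were higher. Il7r, the receptor of interleukin 7, had 3.93, 6.17, 4.83 and 3.89 CPM in DBA/2J against 0.271, 0.223, 0.255 and 0.527 CPM in C57Bl6/N (log2 fold change 3.85 ± 0.49 SE, adjusted p = 1.47e-05).

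S100a9, a calcium-binding protein of neutrophils, had 1.74, 1.28, 1.64 and 0.703 CPM in DBA/2J against 0.859, 0.743, 0.446 and 0.461 CPM in C57Bl6/N (log2 fold change 1.08 ± 0.34 SE, adjusted p = 0.0316), and the groups overlapped. Csf3r, the receptor of G-CSF, had 3.02, 2.44, 3.34 and 1.73 CPM in DBA/2J against 2.17, 1.19, 0.892 and 0.330 CPM in C57Bl6/N (log2 fold change 1.14 ± 0.38 SE, adjusted p = 0.0414), again with overlap. Both calls ended when single libraries were left out. The adjusted p of S100a9 was 0.0506 without C57Bl6/N library 2, 0.0971 without C57Bl6/N library 3, 0.0884 without C57Bl6/N library 4, 0.111 without DBA/2J library 1, 0.0544 without DBA/2J library S40, 0.0924 without DBA/2J library S41. That of Csf3r was 0.0824 without C57Bl6/N library 2, 0.113 without C57Bl6/N library 3, 0.102 without C57Bl6/N library 4, 0.105 without DBA/2J library 1, 0.0678 without DBA/2J library S40, 0.121 without DBA/2J library S41. No B cell marker was called.

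**Figure D3:**
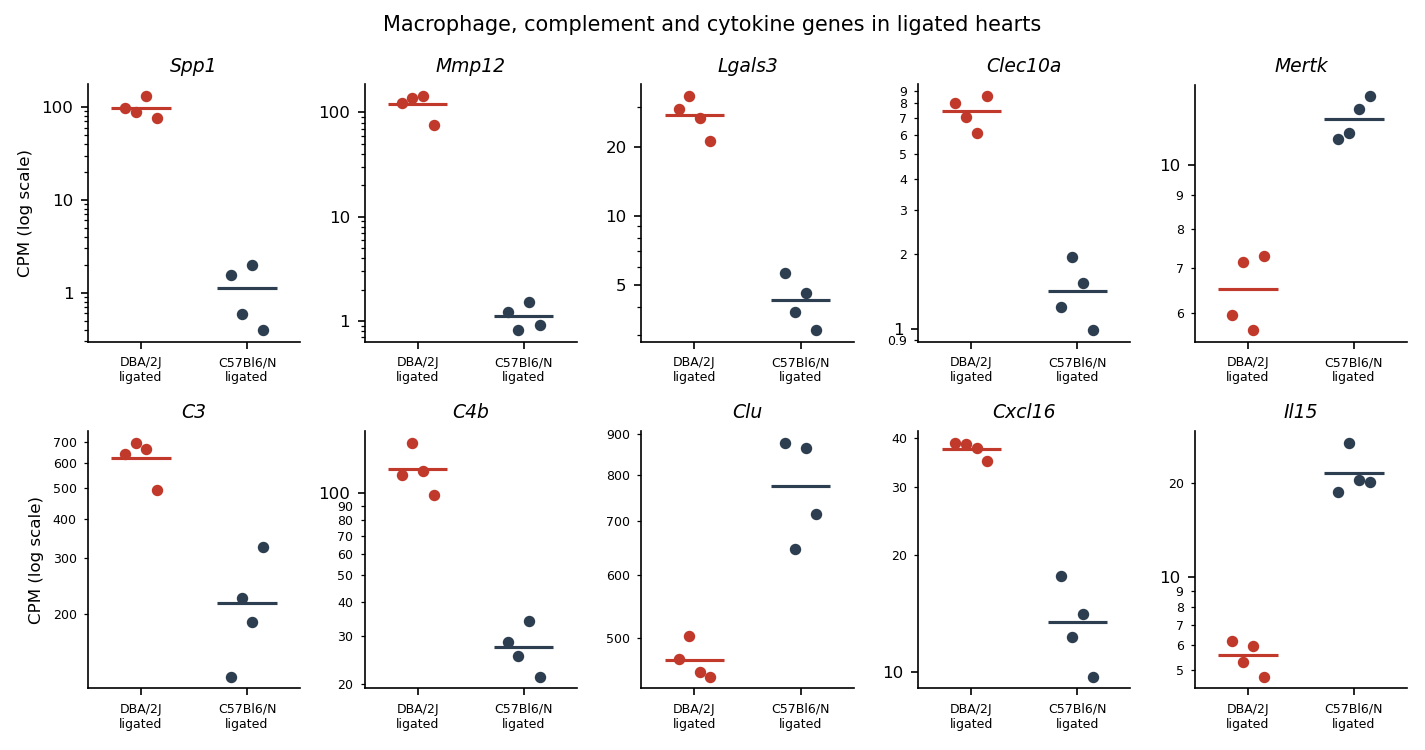
Level in CPM (log scale, a different range in each panel) of macrophage, complement and cytokine genes in the 4 DBA/2J and 4 C57Bl6/N ligated hearts; points are libraries and lines are means. Spp1, Mmp12, Lgals3, Clec10a, C3, C4b and Cxcl16 are higher in each DBA/2J heart than in any C57Bl6/N heart, and Mertk, Clu and Il15 are lower.

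Complement, the cascade of blood proteins that tags cells and microbes for removal, had the largest share of higher genes among the lists of at least 10 tested members: 14 of 25 were higher and 2 lower, with a median of 0.65. C3 (chr17:57203967-57228136), the central protein of the cascade, had 639, 696, 662 and 492 CPM in DBA/2J against 127, 225, 189.5 and 326 CPM in C57Bl6/N (log2 fold change 1.52 ± 0.21 SE, adjusted p = 3.61e-05), with C57Bl6/N library 4 the highest of its group. C4b, the classical pathway protein that forms the C3 convertase, had 117, 153, 121 and 98.8 CPM in DBA/2J against 28.4, 25.4, 33.96 and 21.2 CPM in C57Bl6/N (log2 fold change 2.17 ± 0.21 SE, adjusted p = 5.85e-07). Cfi, the protease that cuts C3b, had 2.36, 3.17, 3.53 and 1.51 CPM in DBA/2J against 0.136, 0.0743, 0.0637 and 0.0659 CPM in C57Bl6/N (log2 fold change 4.75 ± 0.47 SE, adjusted p = 3.65e-06), on 6 counts in C57Bl6/N. Clu, clusterin, a chaperone that also holds back the terminal complex, was one of the 2 lower genes, with 470.5, 503, 453 and 447 CPM in DBA/2J against 878, 647, 864 and 715 CPM in C57Bl6/N (log2 fold change -0.73 ± 0.11 SE, adjusted p = 1.01e-04), and the other was C5ar1, the receptor of C5a. C4a and C4b, C1ra and C1rb, and C1s1 and C1s2 are pairs of near-identical genes. In untreated hearts 13 of the 25 were higher and none lower.

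Of 31 cytokine and chemokine genes 16 were higher and 2 lower, with a median of 0.77, and 12 to 14 were higher when 1 library was left out. Il1rn, the natural antagonist of the interleukin 1 receptor, had 7.83, 7.39, 8.65 and 5.14 CPM in DBA/2J against 0.407, 0.446, 0.573 and 0.395 CPM in C57Bl6/N (log2 fold change 3.98 ± 0.49 SE, adjusted p = 1.03e-05). Ccl8, a chemokine for monocytes, had 7.25, 4.09, 4.54 and 5.35 CPM in DBA/2J against 0.136, 0.595, 1.27 and 0.527 CPM in C57Bl6/N (log2 fold change 3.13 ± 0.37 SE, adjusted p = 7.91e-06), and its log2 fold change was 3.76 without C57Bl6/N library 3. Cxcl16, a membrane-bound chemokine, had 38.9, 38.6, 37.6 and 34.8 CPM in DBA/2J against 17.6, 12.3, 14.1 and 9.75 CPM in C57Bl6/N (log2 fold change 1.47 ± 0.16 SE, adjusted p = 2.75e-06). The members that were higher also included the inflammatory cytokines Il1b and Tnf and the chemokines Ccl2, Ccl3, Cxcl2, Cxcl5 and Cxcl13. Il15, which sustains T and NK cells, was lower, with 6.21, 5.31, 5.995 and 4.76 CPM in DBA/2J against 18.8, 27.1, 20.5 and 20.2 CPM in C57Bl6/N (log2 fold change -1.95 ± 0.17 SE, adjusted p = 2.02e-07), as was the interferon-induced chemokine Cxcl9.

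In the MHC, 7 of 25 class I and peptide loading genes were higher and none lower, against 10.6% and 8.81% of all genes. Their median was 0.05. Lower class I genes numbered 2 in the fit of ligated libraries alone or without the 3 shallowest untreated libraries, in place of none. The median was -0.01 without C57Bl6/N library 1 and -0.01 without C57Bl6/N library 4. H2-T24 had 29.02, 34.9, 32.3 and 36.8 CPM in DBA/2J against 10.8, 13.2, 12.7 and 9.75 CPM in C57Bl6/N (log2 fold change 1.52 ± 0.13 SE, adjusted p = 2.07e-07). H2-Q10 had 1.61, 1.47, 1.64 and 1.84 CPM in DBA/2J against 0.181, 0.223, 0 and 0 CPM in C57Bl6/N (log2 fold change 3.86 ± 0.59 SE, adjusted p = 1.13e-04). The class I genes are near-identical to each other and differ in sequence and number between the strains' haplotypes, so these values are uncertain. Of 11 class II genes 3 were higher and 1 lower, against 10.6% and 8.81% of all genes. H2-Ea-ps (chr17:34342212-34344645), the gene of the class II E alpha chain, which is disabled in C57BL/6 mice and annotated there as a pseudogene, had 23.1, 21.4, 27.4 and 30.02 CPM in DBA/2J and 0 counts in C57Bl6/N, at least 565-fold higher (adjusted p = 7.99e-10). Ctss, cathepsin S, which trims the invariant chain in antigen-presenting cells, had 75.6, 82.5, 89.3 and 60.1 CPM in DBA/2J against 33.1, 25.9, 33.5 and 21.02 CPM in C57Bl6/N (log2 fold change 1.43 ± 0.19 SE, adjusted p = 2.54e-05).

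H2-Ob, a chain of the class II regulator H2-O, had 0.290, 0.305, 0.387 and 0.270 CPM in DBA/2J against 1.31, 1.04, 0.956 and 1.25 CPM in C57Bl6/N (log2 fold change -1.84 ± 0.45 SE, adjusted p = 0.00745), lower in each DBA/2J heart, and H2-DMb2, of the peptide editor H2-M, was higher (log2 fold change 1.67 ± 0.47 SE, adjusted p = 0.0183). The adjusted p of H2-DMb2 was 0.0562 without C57Bl6/N library 1, 0.0538 without C57Bl6/N library 4, 0.0529 without DBA/2J library S42. Of 51 interferon-response genes 2 were higher (Ifi202b and Xaf1) and 4 lower (Rsad2, Ifih1, Gbp9 and Trim34a), with a median of -0.07 that was 0.03 when scaled by library totals. Of all genes 10.6% were higher and 8.81% lower. Lower interferon genes numbered 8 without the 3 shallowest untreated libraries or without C57Bl6/N library 4 and 7 in the fit of ligated libraries alone, in place of 4. The median was 0.04 without C57Bl6/N library 3. Xaf1, an interferon-induced factor of cell death, had 43.8, 45.5, 44.1 and 50.8 CPM in DBA/2J against 10.6, 9.74, 12.04 and 7.12 CPM in C57Bl6/N (log2 fold change 2.22 ± 0.16 SE, adjusted p = 2.52e-08). Rsad2, viperin, an antiviral enzyme, had 21.2, 22.6, 22.05 and 28.8 CPM in DBA/2J against 46.3, 55.5, 51.7 and 38.7 CPM in C57Bl6/N (log2 fold change -1.02 ± 0.18 SE, adjusted p = 6.16e-04). Trim34a, whose near copies neighbour it on chromosome 7, had 1.99, 2.44, 1.74 and 1.84 CPM in DBA/2J against 6.42, 6.99, 9.11 and 7.12 CPM in C57Bl6/N (log2 fold change -1.89 ± 0.15 SE, adjusted p = 8.46e-08).

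Matrix proteases were higher in DBA/2J in 11 of 27 cases and lower in 1, with a median of 0.30. Mmp12 (chr9:7347374-7360461), macrophage elastase, had 122, 138, 143 and 75.8 CPM in DBA/2J against 1.22, 0.818, 1.53 and 0.923 CPM in C57Bl6/N (log2 fold change 6.70 ± 0.41 SE, adjusted p = 1.63e-09). Mmp3, stromelysin, had 28.3, 48.05, 29.3 and 20.7 CPM in DBA/2J against 2.44, 1.64, 2.42 and 2.90 CPM in C57Bl6/N (log2 fold change 3.73 ± 0.31 SE, adjusted p = 8.98e-08). Mmp19 had 19.2, 19.4, 16.4 and 12.9 CPM in DBA/2J against 4.38, 3.05, 5.67 and 4.42 CPM in C57Bl6/N (log2 fold change 1.95 ± 0.19 SE, adjusted p = 9.55e-07). Mmp2, the gelatinase of fibroblasts, had 244, 269, 326 and 303 CPM in DBA/2J against 205, 124, 171 and 162 CPM in C57Bl6/N (log2 fold change 0.78 ± 0.13 SE, adjusted p = 2.01e-04). Each of the 4 separated the strains without overlap. Adamts1, a protease of proteoglycans, was the 1 lower gene, with 41.5, 38.8, 38.8 and 44.1 CPM in DBA/2J against 59.04, 51.7, 121 and 74.9 CPM in C57Bl6/N (log2 fold change -0.91 ± 0.25 SE, adjusted p = 0.0159), and its adjusted p was 0.0824 without C57Bl6/N library 3.

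Of 55 collagen and other matrix genes 11 were higher and 2 lower after ligation, against 30 and 1 in untreated hearts. The medians were 0.18 and 0.68. Over all genes 10.6% were higher and 8.81% lower after ligation, and 12.6% and 9.92% in untreated hearts. No gene of the list passed the test of the interaction, so no difference between these effects is shown for a gene. After ligation the count moved with the fit and with single libraries. Higher matrix genes numbered 17 without C57Bl6/N library 1, 7 without DBA/2J library S42, 6 in the fit of ligated libraries alone or without C57Bl6/N library 4 or without DBA/2J library S41 and 5 without C57Bl6/N library 2, in place of 11. Lower matrix genes numbered 6 without C57Bl6/N library 2, in place of 2. Fbln1, fibulin 1, a glycoprotein of elastic fibres, had 178, 196, 209 and 198 CPM in DBA/2J against 117, 127, 119 and 147 CPM in C57Bl6/N (log2 fold change 0.61 ± 0.09 SE, adjusted p = 7.86e-05). Cilp, a matrix protein that binds TGF-beta, was lower, with 17.4, 17.8, 27.8 and 28.5 CPM in DBA/2J against 179, 53.7, 116 and 73.5 CPM in C57Bl6/N (log2 fold change -2.21 ± 0.27 SE, adjusted p = 1.08e-05). The C57Bl6/N hearts spread widely in Cilp, and the lowest was still above the highest DBA/2J heart. Ltbp1, which stores latent TGF-beta in the matrix, was the other lower gene, with 83.4, 83.2, 75.6 and 92.4 CPM in DBA/2J against 118, 119, 122 and 116 CPM in C57Bl6/N (log2 fold change -0.51 ± 0.08 SE, adjusted p = 1.75e-04).

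Of 30 genes of TGF-beta signalling and myofibroblasts 8 were higher and 2 lower, against 10.6% and 8.81% of all genes. The median of the list was 0.20. Smad3, a transcription factor that carries the TGF-beta signal, had 44.1, 46.8, 46.1 and 50.5 CPM in DBA/2J against 31.6, 29.6, 27.1 and 33.5 CPM in C57Bl6/N (log2 fold change 0.62 ± 0.10 SE, adjusted p = 1.46e-04). Fst, follistatin, which binds activin, had 2.15, 1.53, 1.64 and 1.62 CPM in DBA/2J against 0.633, 0.520, 0.701 and 0.857 CPM in C57Bl6/N (log2 fold change 1.35 ± 0.29 SE, adjusted p = 0.00286). Higher members numbered 5 without C57Bl6/N library 3 or without DBA/2J library S42 and 4 without C57Bl6/N library 2 or 4 or without DBA/2J library S41, in place of 8. Lower members numbered 1 with library totals or without C57Bl6/N library 2 or 3 or without DBA/2J library 1, S40 or S41, in place of 2. Beside the matrix genes, markers of fibroblasts were higher in 7 of 18 cases and lower in none, with a median of 0.38 and a summed level of 5575 to 6684 CPM in DBA/2J against 4412 to 5778 CPM in C57Bl6/N. Dpt, dermatopontin, had 213, 215, 227 and 231 CPM in DBA/2J against 99.8, 96.6, 114 and 110 CPM in C57Bl6/N (log2 fold change 1.08 ± 0.11 SE, adjusted p = 1.96e-06). Lum, lumican, had 251, 242, 326 and 281 CPM in DBA/2J against 209.6, 137, 189.6 and 141 CPM in C57Bl6/N (log2 fold change 0.70 ± 0.16 SE, adjusted p = 0.00417). The part of the number of fibroblasts in the matrix result was not tested. Higher fibroblast markers numbered 4 without C57Bl6/N library 4 or without DBA/2J library S41 and 3 without C57Bl6/N library 2 or without DBA/2J library S42, in place of 7.

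Many genes of the adult sarcomere were lower in DBA/2J. Of 20, 11 were lower and 1 was higher, with a median of -0.32, and 8 to 11 were lower when 1 library was left out. Tcap had 519, 670.2, 549 and 489 CPM in DBA/2J against 1117, 1547, 1449 and 1004 CPM in C57Bl6/N (log2 fold change -1.20 ± 0.15 SE, adjusted p = 1.76e-05). Myom1 and Myom2 encode myomesins, which tie thick filaments at the M band. Myom1 had 1719, 1809.7, 1651 and 1735 CPM in DBA/2J against 3032, 3012, 3118 and 3298 CPM in C57Bl6/N (log2 fold change -0.85 ± 0.10 SE, adjusted p = 8.60e-06). Myom2 had 1343, 1407, 1170.2 and 1429.9 CPM in DBA/2J against 2499.9, 2576, 2148 and 2579 CPM in C57Bl6/N (log2 fold change -0.87 ± 0.11 SE, adjusted p = 9.80e-06). Tnni3k (chr3:154786291-155055407), a kinase of heart muscle that binds troponin I, had 39.003, 41.5, 41.7 and 41.5 CPM in DBA/2J against 136, 160.3, 140.2 and 148 CPM in C57Bl6/N (log2 fold change -1.84 ± 0.09 SE, adjusted p = 5.27e-11). Myom1, Myom2 and Tnni3k did not overlap between strains, and Tcap was named under a rule that asked for no overlap. Tnnc1, the calcium-binding troponin C of heart, was the 1 higher gene, with 2832, 2764, 2849 and 2761 CPM in DBA/2J against 2196, 2303, 2181 and 2318 CPM in C57Bl6/N (log2 fold change 0.32 ± 0.08 SE, adjusted p = 0.0117). With scaling by library totals the median of the list was -0.21 and 8 were lower.

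Calcium handling and ion channel genes were lower in 12 of 34 cases and higher in 4, with a median of -0.18 that was -0.07 with scaling by library totals. Cacna1h (chr17:25374287-25433783), a T-type calcium channel of fetal and pacemaker muscle, had 2.32, 2.63, 2.42 and 2.60 CPM in DBA/2J against 29.7, 23.3, 26.3 and 19.7 CPM in C57Bl6/N (log2 fold change -3.32 ± 0.15 SE, adjusted p = 3.14e-11). Kcnj11, the pore of the ATP-sensitive potassium channel, had 72.1, 73.3, 67.2 and 67.3 CPM in DBA/2J against 156, 199, 164 and 189 CPM in C57Bl6/N (log2 fold change -1.34 ± 0.13 SE, adjusted p = 5.44e-07). Kcnj3, a subunit of the potassium channel opened by acetylcholine and abundant in atria, had 62.5, 63.2, 59.8 and 56.4 CPM in DBA/2J against 99.4, 142, 128 and 135 CPM in C57Bl6/N (log2 fold change -1.06 ± 0.17 SE, adjusted p = 1.71e-04), lower in each DBA/2J heart. Kcnj3 was the 1 called gene of 13 atrial markers. Casq1, the calcium store protein of skeletal muscle, was higher, with 81.5, 87.8, 76.4 and 84.5 CPM in DBA/2J against 24.3, 16.4, 36.7 and 18.5 CPM in C57Bl6/N (log2 fold change 1.78 ± 0.18 SE, adjusted p = 1.07e-06). The other higher genes were Scn4b, Cacna1c and Kcnd2. Higher channel genes numbered 7 in the fit of ligated libraries alone or without the 3 shallowest untreated libraries, in place of 4.

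Among adrenergic, angiotensin and endothelin genes 6 of 27 were lower and 2 higher (Grk5 and Ednra), against 8.81% and 10.6% of all genes. Their median was -0.15. Higher genes numbered 4 in the fit of ligated libraries alone or without the 3 shallowest untreated libraries and 1 with RLE scaling or without C57Bl6/N library 1, 2 or 3 or without DBA/2J library 1, S40, S41 or S42, in place of 2. Lower genes numbered 12 without the 3 shallowest untreated libraries and 11 in the fit of ligated libraries alone, in place of 6. Agtr1a, the receptor of angiotensin II, had 32.1, 29.2, 26.98 and 28.2 CPM in DBA/2J against 60.5, 69.4, 73.6 and 66.8 CPM in C57Bl6/N (log2 fold change -1.21 ± 0.10 SE, adjusted p = 1.10e-07). Corin, the protease that activates atrial natriuretic peptide, had 131, 197, 127 and 147 CPM in DBA/2J against 348, 418, 335 and 403 CPM in C57Bl6/N (log2 fold change -1.32 ± 0.14 SE, adjusted p = 1.57e-06). Agtr1a and Corin were lower in each DBA/2J heart. Grk5, a kinase that desensitizes adrenergic receptors, had 82.8, 96.1, 90.7 and 90.7 CPM in DBA/2J against 62.7, 56.4, 60.03 and 73.02 CPM in C57Bl6/N (log2 fold change 0.51 ± 0.10 SE, adjusted p = 0.00134). Edn3, endothelin 3, was lower, with 2.32, 1.71, 2.71 and 2.87 CPM in DBA/2J against 9.49, 4.68, 8.92 and 3.56 CPM in C57Bl6/N (log2 fold change -1.48 ± 0.27 SE, adjusted p = 6.73e-04).

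**Figure D4:**
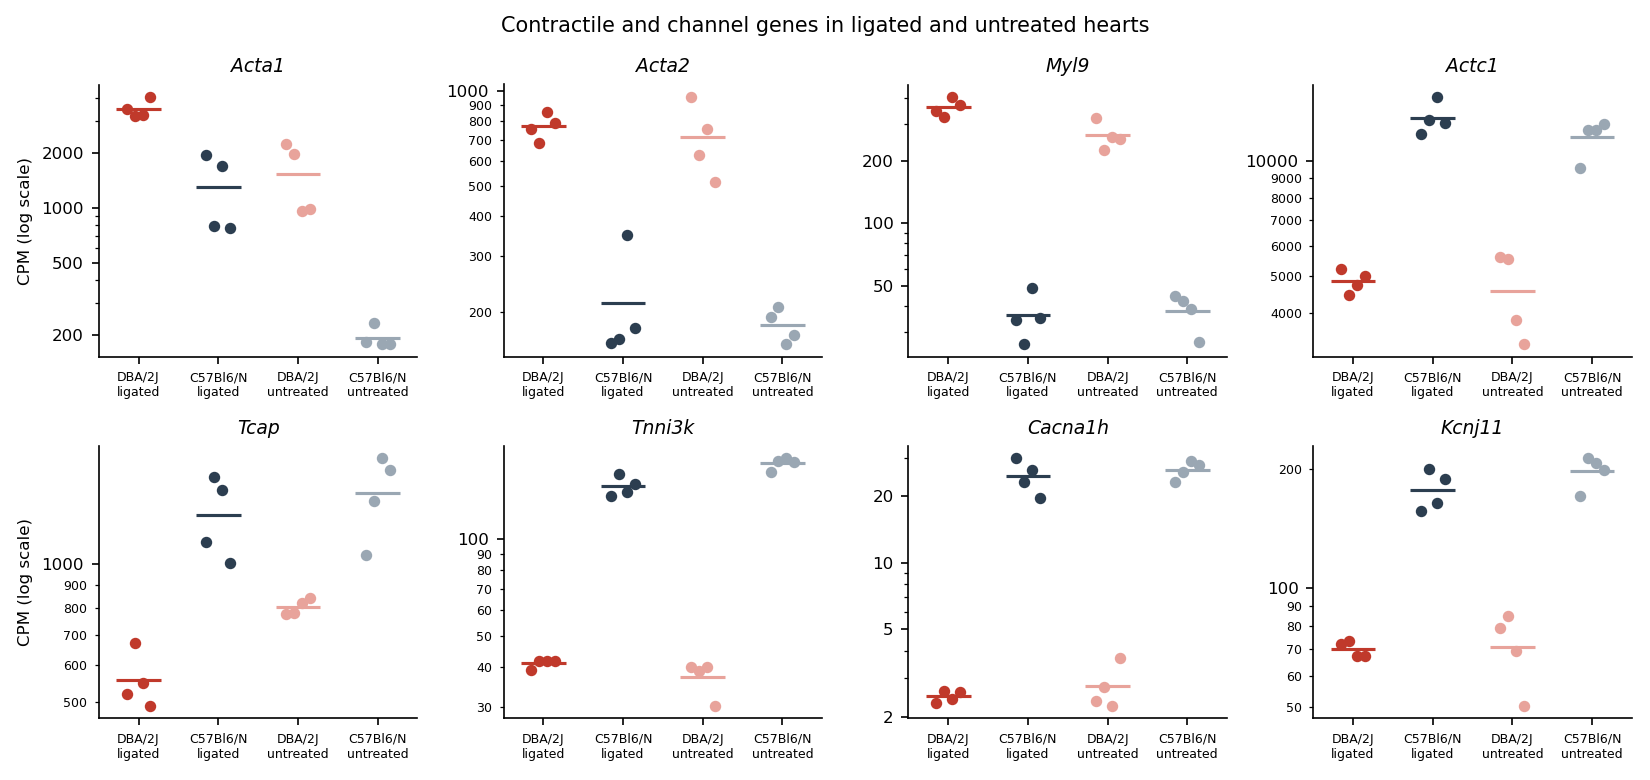
Level in CPM (log scale, a different range in each panel) of contractile and channel genes in the 4 groups; points are libraries and lines are means. Acta2 and Myl9 are higher and Actc1, Tcap, Tnni3k, Cacna1h and Kcnj11 lower in DBA/2J in ligated and in untreated hearts.

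Of the 12 genes of the stress panel, which are known to rise in failing or overloaded hearts or to take part in the adult form of the muscle, 3 were higher (Spp1, Acta1 and Col3a1) and none was lower, against 10 higher in untreated hearts, and the medians were 0.51 and 1.46. Acta1, skeletal actin, a fetal gene of the heart, had 3467, 3176, 3215 and 4048 CPM in DBA/2J against 1948, 789, 1701 and 775 CPM in C57Bl6/N (log2 fold change 1.42 ± 0.30 SE, adjusted p = 0.00241). Beside it, no other of the 5 tested skeletal muscle markers was called (median of the 5 -0.24). Col3a1, fibrillar collagen III, had 1873, 1887, 2421 and 2288 CPM in DBA/2J against 2046, 913, 1623 and 1076 CPM in C57Bl6/N (log2 fold change 0.58 ± 0.20 SE, adjusted p = 0.0445), with overlap, as C57Bl6/N library 1 was above 2 of the DBA/2J hearts. Its adjusted p was 0.138 without C57Bl6/N library 2, 0.0525 without C57Bl6/N library 3, 0.137 without C57Bl6/N library 4, 0.0572 without DBA/2J library 1, 0.0582 without DBA/2J library S40, 0.132 without DBA/2J library S41, 0.107 without DBA/2J library S42. It was 0.0039 without C57Bl6/N library 1, 0.127 in a fit of the 8 ligated libraries alone and 0.0647 without the 3 shallowest untreated libraries.

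C57Bl6/N library 1 stood apart from the other 3 in Myh7 and was the highest of its group in Acta1, Col1a1, Col3a1, Nppa and Postn. Myh7, the slow myosin heavy chain that returns in stressed mouse ventricles, had 1968, 2118, 1859 and 2060.2 CPM in DBA/2J against 2759.8, 969, 959.8 and 915 CPM in C57Bl6/N. The difference between the strains did not pass the test (log2 fold change 0.51 ± 0.29 SE, adjusted p = 0.241), but without C57Bl6/N library 1 the log2 fold change was 1.08 (adjusted p = 2.66e-04). Col1a1, collagen I, had 650.3, 637, 836 and 831 CPM in DBA/2J against 797, 329.7, 583 and 382 CPM in C57Bl6/N (log2 fold change 0.50 ± 0.21 SE, adjusted p = 0.105), and 0.77 (adjusted p = 0.00539) without that library. In untreated hearts the strain difference of Myh7 was 2.61 ± 0.30 (SE, adjusted p = 7.36e-06). The interaction was -2.09 ± 0.41 (SE), with an unadjusted p of 7.95e-05 and an adjusted p of 0.387. Without C57Bl6/N library 1, 5 of the 12 genes were higher.

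The other panel genes did not pass the test after ligation. Nppa, atrial natriuretic peptide, had 785, 986, 1096 and 1028 CPM in DBA/2J against 863, 469, 748 and 507 CPM in C57Bl6/N (log2 fold change 0.59 ± 0.24 SE, adjusted p = 0.102). Nppb, brain natriuretic peptide, had 185, 192, 111 and 156 CPM in DBA/2J against 251, 223, 197 and 309 CPM in C57Bl6/N (log2 fold change -0.60 ± 0.29 SE, adjusted p = 0.173). The strains overlapped in Nppa and were apart in Nppb, without a call. Myh6, the fast myosin of the adult mouse ventricle, had 29287 to 31841 CPM in DBA/2J against 31664 to 40331 CPM in C57Bl6/N (log2 fold change -0.26 ± 0.12 SE, adjusted p = 0.131). Without the 3 shallowest untreated libraries the adjusted p of Nppa was 0.0449 and that of Myh6 0.0302. Ankrd1, a stretch-induced ankyrin protein, had 3407 to 4021 CPM in DBA/2J against 2874 to 4629.8 CPM in C57Bl6/N (log2 fold change 0.05 ± 0.21 SE, adjusted p = 0.903). Neither muscle gene separated the strains. Periostin, Postn, the marker of activated fibroblasts, had 404, 317, 533 and 414 CPM in DBA/2J against 536, 154, 460 and 177 CPM in C57Bl6/N (log2 fold change 0.33 ± 0.32 SE, adjusted p = 0.537), and both strains had hearts with high and low values. Timp1, an inhibitor of matrix proteases, had 8.55 to 16.1 CPM in DBA/2J against 6.39 to 16.3 CPM in C57Bl6/N (log2 fold change 0.10 ± 0.25 SE, adjusted p = 0.836). Gdf15, a stress cytokine, had 2.90 to 3.95 CPM in DBA/2J against 0.828 to 2.77 CPM in C57Bl6/N (log2 fold change 0.72 ± 0.31 SE, adjusted p = 0.114). Gdf15 values did not overlap, and its adjusted p was 0.0455 with limma-voom. Of the wider list of 20 cardiac stress genes 5 were higher and 3 lower, against 10.6% and 8.81% of all genes. Nmrk2, a kinase of the NAD salvage pathway, had 47.8, 56.4, 59.2 and 46.1 CPM in DBA/2J against 17.9, 5.72, 11.3 and 8.63 CPM in C57Bl6/N (log2 fold change 2.24 ± 0.23 SE, adjusted p = 1.56e-06). Rcan1, an inhibitor and target of calcineurin, had 263, 197, 212 and 261 CPM in DBA/2J against 109.5, 93.7, 112 and 146 CPM in C57Bl6/N (log2 fold change 1.02 ± 0.15 SE, adjusted p = 9.96e-05). Atp2a2, the calcium pump SERCA2, was among the 3 lower ones, with 12664 to 13531 CPM in DBA/2J against 15319 to 21989 CPM in C57Bl6/N (log2 fold change -0.49 ± 0.11 SE, adjusted p = 0.00286).

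Arntl and Npas2, activators of the circadian clock, were higher in DBA/2J, and several genes that the clock drives were lower. In this clock the proteins of Arntl and Npas2 or Clock switch on the Per, Cry, Dbp, Tef, Hlf and Ciart genes through a DNA motif called the E-box, CACGTG, and the Per and Cry proteins switch the activators off. Of 19 clock genes 3 were higher in DBA/2J (Arntl, Npas2 and Nfil3) and 8 lower (Per1, Per2, Cry2, Nr1d2, Dbp, Tef, Hlf and Ciart), with a median of -0.56. The activator Clock was not called. Promoter sequences are shown for Ciart, Per1 and Tef, the lower genes whose window before the start of transcription holds the E-box, with the E-box in capitals. They are the 250 bases before the start from RefSeq on GRCm38.p6, the C57BL/6J reference, 5′ to 3′ on the gene's strand: Ciart at chr3:95882229-95882478 (minus strand), Per1 at chr11:69098699-69098948 (plus strand) and Tef at chr15:81802423-81802672 (plus strand).
Ciart: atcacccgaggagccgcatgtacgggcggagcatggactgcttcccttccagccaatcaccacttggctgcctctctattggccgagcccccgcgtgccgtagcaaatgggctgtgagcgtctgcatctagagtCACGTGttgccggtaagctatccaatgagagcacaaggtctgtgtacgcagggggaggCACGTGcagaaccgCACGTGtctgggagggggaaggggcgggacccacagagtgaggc
Per1: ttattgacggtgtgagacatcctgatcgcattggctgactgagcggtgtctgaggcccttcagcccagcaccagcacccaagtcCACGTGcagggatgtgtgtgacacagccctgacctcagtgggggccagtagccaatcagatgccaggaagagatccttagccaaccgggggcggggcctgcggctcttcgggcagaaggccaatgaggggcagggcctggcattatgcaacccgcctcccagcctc
Tef: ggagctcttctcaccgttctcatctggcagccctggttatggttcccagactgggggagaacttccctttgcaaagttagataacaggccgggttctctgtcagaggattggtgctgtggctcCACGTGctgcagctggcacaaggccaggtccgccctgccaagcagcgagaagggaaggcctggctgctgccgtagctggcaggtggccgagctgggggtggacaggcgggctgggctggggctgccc

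The Ciart window holds 3 E-boxes, which begin 116, 58 and 44 bases before the start, and the Per1 and Tef windows printed above hold 1 each, 166 and 127 bases before it. Per1 and Tef each have a second RefSeq window, of another start, which holds no E-box for Per1 and 1 for Tef, 138 bases before that start. RefSeq windows were found for 16 of the 19 clock genes, 21 windows in all, and 6 windows of 5 genes (Bhlhe41, Ciart, Cry1, Per1 and Tef) hold CACGTG, a motif that reads the same on both strands. Of all 32851 promoter windows of the same length, from 250 bases before to 50 after the start, 7.15% hold it. Bhlhe41 and Cry1 were not called. Among the lower genes, the windows of Dbp, Hlf, Cry2 and Nr1d2 hold no CACGTG, and no window was found for Per2. The motif TTATGNAA, the D-box read by the Dbp, Tef and Hlf proteins, was searched on both strands and stands in the windows of 2 of the 16 genes and in 3.38% of all windows. A match says only that the letters are there.

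Dbp, a transcription factor that the clock drives directly, had 38.7, 39.3, 37.5 and 27.9 CPM in DBA/2J against 166, 187, 162 and 66.4 CPM in C57Bl6/N (log2 fold change -2.02 ± 0.34 SE, adjusted p = 3.17e-04). Ciart, a repressor of the clock, had 2.48, 2.14, 1.26 and 1.89 CPM in DBA/2J against 11.6, 14.6, 25.2 and 5.14 CPM in C57Bl6/N (log2 fold change -2.85 ± 0.58 SE, adjusted p = 0.00168). Per2, a core repressor, had 7.04, 4.82, 3.43 and 4.65 CPM in DBA/2J against 19.2, 20.1, 24.3 and 12.9 CPM in C57Bl6/N (log2 fold change -1.93 ± 0.44 SE, adjusted p = 0.00434). In each of the 3 the lowest C57Bl6/N heart was library 4, still above every DBA/2J heart. Hlf, another driven factor, had 28.2, 25.3, 23.6 and 23.96 CPM in DBA/2J against 70.7, 91.2, 84.7 and 46.9 CPM in C57Bl6/N (log2 fold change -1.54 ± 0.25 SE, adjusted p = 2.45e-04). Cry2, a core repressor, had 26.95, 25.9, 26.9 and 26.5 CPM in DBA/2J against 45.6, 55.6, 44.2 and 33.9 CPM in C57Bl6/N (log2 fold change -0.75 ± 0.14 SE, adjusted p = 9.85e-04). Arntl and Npas2 stood the other way, low in C57Bl6/N. Arntl, the activator BMAL1, had 26.9, 25.5, 26.6 and 30.6 CPM in DBA/2J against 5.15, 3.79, 4.52 and 17.1 CPM in C57Bl6/N (log2 fold change 1.85 ± 0.48 SE, adjusted p = 0.0108). Npas2, its partner, had 9.19, 8.67, 11.5 and 10.3 CPM in DBA/2J against 3.89, 2.75, 3.44 and 6.85 CPM in C57Bl6/N (log2 fold change 1.23 ± 0.29 SE, adjusted p = 0.00574). In both activators library 4 was the C57Bl6/N heart nearest to DBA/2J.

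Since C57Bl6/N library 4 stood apart from its group in these genes, the values were also taken without it. The log2 fold change of Arntl was then 2.59 (adjusted p = 8.11e-04) and that of Dbp -2.26 (adjusted p = 5.60e-05), and 3 clock genes were higher and 9 lower with a median of -0.63. Arntl, Per1, Per2 and Tef were named after their values were seen. Per1, a core repressor, had 33.5, 28.02, 19.5 and 24.6 CPM in DBA/2J against 43.7, 44.2, 89.7 and 77.97 CPM in C57Bl6/N (log2 fold change -1.27 ± 0.42 SE, adjusted p = 0.0403), and its adjusted p was 0.125 without C57Bl6/N library 3, 0.0974 without C57Bl6/N library 4, 0.0554 without DBA/2J library 1, 0.079 without DBA/2J library S40, 0.116 without DBA/2J library S41, 0.0934 without DBA/2J library S42, 0.0595 with scaling by library totals and 0.0788 without the 3 shallowest untreated libraries. Tef had 81.2, 69.2, 69.8 and 74.7 CPM in DBA/2J against 143, 175, 139 and 78.96 CPM in C57Bl6/N (log2 fold change -0.86 ± 0.28 SE, adjusted p = 0.0345), with C57Bl6/N library 4 inside the range of the DBA/2J hearts, and its adjusted p was 0.0702 without C57Bl6/N library 1, 0.118 without C57Bl6/N library 2, 0.0713 without C57Bl6/N library 3, 0.0588 without DBA/2J library 1, 0.0837 without DBA/2J library S40, 0.0842 without DBA/2J library S41, 0.0718 without DBA/2J library S42, and 0.0708 with scaling by library totals. In untreated hearts 1 clock gene was higher and 5 lower. The hour of tissue collection is not given in the sources used here.

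**Figure D5:**
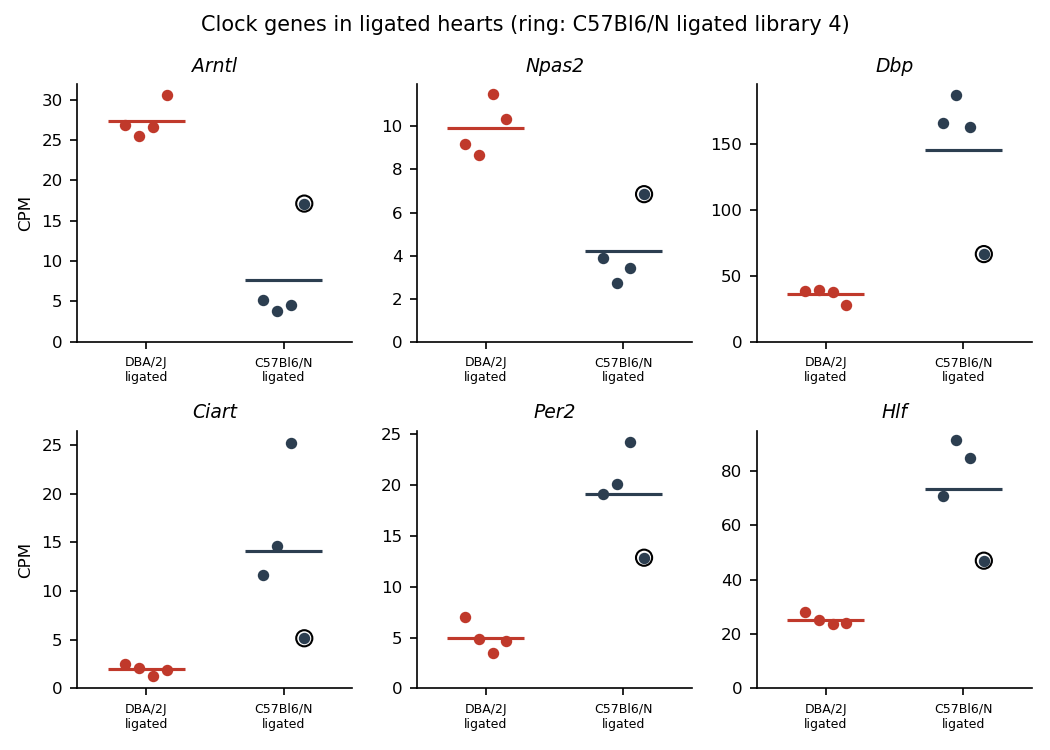
Level in CPM (linear axes from 0) of 6 clock genes in ligated hearts; points are libraries, lines are means and a ring marks C57Bl6/N library 4. The activators Arntl and Npas2 are higher and Dbp, Ciart, Per2 and Hlf lower in each DBA/2J heart, and library 4 lies nearest to the DBA/2J hearts in each panel.

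Of 63 respiratory chain and TCA cycle genes 9 were lower and 1 higher, against 8.81% and 10.6% of all genes. Their median was -0.19, and -0.07 with scaling by library totals. Lower genes numbered 27 without the 3 shallowest untreated libraries, 24 in the fit of ligated libraries alone, 18 with DESeq2, 16 without C57Bl6/N library 1, 5 without DBA/2J library S40, 4 with library totals or without DBA/2J library 1 and 3 without C57Bl6/N library 2, in place of 9. Idh2, a mitochondrial isocitrate dehydrogenase, had 1025, 1051, 1022 and 1039 CPM in DBA/2J against 1373, 1944, 1301 and 1727 CPM in C57Bl6/N (log2 fold change -0.62 ± 0.12 SE, adjusted p = 0.00101). Of 36 genes of fatty acid oxidation 6 were lower and 2 higher, against 8.81% and 10.6% of all genes. The median was -0.07 and changed sign to 0.04 with library totals. Mlycd, which removes the malonyl-CoA that blocks entry of fatty acids into mitochondria, had 52.2, 63.98, 53.4 and 51.3 CPM in DBA/2J against 77.6, 105, 77.1 and 85.7 CPM in C57Bl6/N (log2 fold change -0.64 ± 0.14 SE, adjusted p = 0.00277). Hadh, an enzyme of beta-oxidation, had 804, 809, 729 and 769 CPM in DBA/2J against 465, 661, 492 and 632 CPM in C57Bl6/N (log2 fold change 0.47 ± 0.11 SE, adjusted p = 0.00569). Higher genes numbered 5 with library totals and 1 with limma-voom or without C57Bl6/N library 1, 3 or 4 or without DBA/2J library S40, S41 or S42, in place of 2. Lower genes numbered 10 without the 3 shallowest untreated libraries, 3 without C57Bl6/N library 4 or without DBA/2J library 1 and 2 with library totals or without C57Bl6/N library 2 or without DBA/2J library S41 or S42, in place of 6.

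Glycolysis had 4 lower and 1 higher of 25, against 8.81% and 10.6% of all genes. The median of the list was -0.07 (0.04 with library totals). Gpi1, glucose-6-phosphate isomerase, had 416, 404, 429 and 427 CPM in DBA/2J against 693, 700.2, 739 and 687 CPM in C57Bl6/N (log2 fold change -0.75 ± 0.09 SE, adjusted p = 9.62e-06). Slc16a3, an exporter of lactate, had 4.93, 4.88, 6.48 and 4.76 CPM in DBA/2J against 1.85, 2.30, 3.19 and 1.85 CPM in C57Bl6/N (log2 fold change 1.20 ± 0.27 SE, adjusted p = 0.00343). Lower genes numbered 2 with library totals or without C57Bl6/N library 2, 3 or 4 or without DBA/2J library S40, S41 or S42, in place of 4. Ketone and branched-chain amino acid genes had 2 higher and 1 lower of 22, against 10.6% and 8.81% of all genes. Higher genes numbered 5 with library totals and 1 without C57Bl6/N library 1, 3 or 4 or without DBA/2J library S40, in place of 2. Lower genes numbered 0 with library totals or without C57Bl6/N library 2, 3 or 4 or without DBA/2J library S40, S41 or S42, in place of 1. Auh, of leucine breakdown, had 82.2, 85.3, 74.5 and 81.8 CPM in DBA/2J against 49.2, 65.5, 55.2 and 43.4 CPM in C57Bl6/N (log2 fold change 0.60 ± 0.10 SE, adjusted p = 3.04e-04). Antioxidant and glutathione genes had 4 higher and 7 lower of 43, against 10.6% and 8.81% of all genes, with a median of -0.05 (0.06 with library totals). Mgst1, a microsomal glutathione transferase, had 18.2, 20.4, 19.3 and 17.2 CPM in DBA/2J against 40.9, 46.6, 54.4 and 46.7 CPM in C57Bl6/N (log2 fold change -1.33 ± 0.12 SE, adjusted p = 2.15e-07). Gsr, glutathione reductase, had 39.3, 40.97, 38.6 and 36.997 CPM in DBA/2J against 26.8, 26.3, 27.6 and 29.3 CPM in C57Bl6/N (log2 fold change 0.50 ± 0.08 SE, adjusted p = 1.04e-04). Lower genes numbered 4 without C57Bl6/N library 2 or without DBA/2J library S40, S41 or S42 and 3 with library totals or without C57Bl6/N library 4 or without DBA/2J library 1, in place of 7.

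Iron handling had 4 higher and 3 lower of 18, against 10.6% and 8.81% of all genes. Lower genes numbered 5 with DESeq2 or in the fit of ligated libraries alone or without the 3 shallowest untreated libraries, in place of 3. Hamp, hepcidin, the hormone that closes the iron exporter, had 3.35, 2.75, 2.13 and 1.84 CPM in DBA/2J against 0.0452, 0.0743, 0.191 and 0 CPM in C57Bl6/N (log2 fold change 4.92 ± 0.91 SE, adjusted p = 7.65e-04), on 5 counts in C57Bl6/N, and its log2 fold change was 5.72 without C57Bl6/N library 3. It is a near-identical neighbour of Hamp2. Hfe, which senses iron for hepcidin, had 18.01, 19.2, 17.1 and 17.9 CPM in DBA/2J against 43.8, 39.3, 54.9 and 40.99 CPM in C57Bl6/N (log2 fold change -1.31 ± 0.14 SE, adjusted p = 1.45e-06). Steap3, a ferric reductase, had 90.1, 79.6, 85.6 and 78.5 CPM in DBA/2J against 54.7, 56.3, 61.9 and 47.3 CPM in C57Bl6/N (log2 fold change 0.60 ± 0.13 SE, adjusted p = 0.00217). Of 22 hypoxia and angiogenesis genes 2 were higher and 1 lower, against 10.6% and 8.81% of all genes. Higher genes numbered 6 without the 3 shallowest untreated libraries, 5 with library totals or in the fit of ligated libraries alone or without C57Bl6/N library 4, 4 with limma-voom and 1 without C57Bl6/N library 1, 2 or 3 or without DBA/2J library 1, S41 or S42, in place of 2. Angpt1, angiopoietin 1, which steadies vessels, was the lower one, with 36.2, 48.4, 32.4 and 35.9 CPM in DBA/2J against 129.8, 118, 135 and 139 CPM in C57Bl6/N (log2 fold change -1.77 ± 0.17 SE, adjusted p = 7.21e-07), and each DBA/2J heart was below each C57Bl6/N heart.

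Genes known to differ between C57BL/6 and DBA/2 mice were counted as another list. Calls in either direction were counted, so the count cannot tell whether the strain labels are right. Of 26, 19 were tested, and 6 were higher and 5 lower in DBA/2J, all 11 called with the same direction in untreated hearts. Of all genes 10.6% were higher and 8.81% lower after ligation. Ifi202b, H2-Ea-ps, Trim12a and Tnni3k are given above. Cyfip2, an actin regulator of the WAVE complex, had 39.4, 33.8, 46.3 and 40.6 CPM in DBA/2J against 317, 427, 347 and 413 CPM in C57Bl6/N (log2 fold change -3.23 ± 0.14 SE, adjusted p = 2.45e-11). Glo1, which detoxifies methylglyoxal and is duplicated in some strains, had 158, 149.6, 166 and 163 CPM in DBA/2J against 74.3, 82.2, 77.9 and 81.3 CPM in C57Bl6/N (log2 fold change 1.01 ± 0.08 SE, adjusted p = 3.47e-08). Alad, an enzyme of heme synthesis that is duplicated in DBA/2, had 119, 112, 114 and 128 CPM in DBA/2J against 36.8, 41.6, 34.3 and 30.4 CPM in C57Bl6/N (log2 fold change 1.72 ± 0.17 SE, adjusted p = 1.10e-06). In each of the 3 genes the strains did not overlap.

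Cox7a2l, which joins respiratory complexes III and IV and is truncated in C57BL/6, had 102, 102, 93.9 and 104 CPM in DBA/2J against 191, 217, 189 and 201 CPM in C57Bl6/N (log2 fold change -0.99 ± 0.12 SE, adjusted p = 1.15e-05). Nnt, a mitochondrial proton pump that makes NADPH, had 587, 585, 596 and 641 CPM in DBA/2J against 927, 1380.3, 832 and 1207 CPM in C57Bl6/N (log2 fold change -0.85 ± 0.13 SE, adjusted p = 8.38e-05). Myo5a, the motor protein mutated in the dilute coat of DBA/2, had 52.9, 47.4, 56.5 and 47.7 CPM in DBA/2J against 28.8, 17.5, 27.7 and 21.1 CPM in C57Bl6/N (log2 fold change 1.10 ± 0.17 SE, adjusted p = 1.23e-04). All 3 separated the strains. Fcgr2b, an inhibitory antibody receptor, had 19.5, 16.4, 14.2 and 12.5 CPM in DBA/2J against 9.13, 9.14, 11.7 and 9.62 CPM in C57Bl6/N (log2 fold change 0.67 ± 0.19 SE, adjusted p = 0.0204), and its adjusted p was 0.0563 without C57Bl6/N library 1, 0.0577 without C57Bl6/N library 2, 0.0867 without DBA/2J library 1, 0.0513 without DBA/2J library S40. Gpnmb, a glycoprotein that carries a stop mutation in DBA/2J, was not called and stood at 2.70 to 4.26 CPM in DBA/2J against 1.76 to 2.55 CPM in C57Bl6/N (log2 fold change 0.71 ± 0.39 SE, adjusted p = 0.232). Its adjusted p was 0.0151 in the fit of ligated libraries alone and 0.0494 without the 3 shallowest untreated libraries. Cdh23, Ahr, Entpd4, Pam, Ide and Dtnbp1 were not called either, with log2 fold changes from -0.27 (Cdh23) to 0.17 (Dtnbp1). The adjusted p of Ide, 0.079, was 0.0311 with DESeq2, 0.011 in the fit of ligated libraries alone and 0.00973 without the 3 shallowest untreated libraries, and that of Dtnbp1, 0.266, was 0.0327 with library totals.

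Of all genes 10.6% were higher and 8.81% lower, which is the share to set beside the marker counts that follow. Endothelial markers were lower in 4 of 20 cases and higher in none, with a median of -0.13. Their summed level was 3274 to 3679.8 CPM in DBA/2J against 3619.6 to 4031 CPM in C57Bl6/N. Aqp1, the water channel of capillaries, had 191, 186, 185 and 232 CPM in DBA/2J against 326, 419, 460.3 and 396 CPM in C57Bl6/N (log2 fold change -1.01 ± 0.21 SE, adjusted p = 0.00181). Rgcc had 13.95, 13.7, 13.97 and 14.4 CPM in DBA/2J against 17.7, 22.8, 24.3 and 21.6 CPM in C57Bl6/N (log2 fold change -0.62 ± 0.17 SE, adjusted p = 0.0148). Lower endothelial markers numbered 2 with library totals or without DBA/2J library S41, in place of 4. Of 7 Schwann cell markers 2 were higher, among them Mbp, myelin basic protein, with 6.79, 6.59, 6.24 and 6.82 CPM in DBA/2J against 3.12, 3.27, 4.46 and 3.49 CPM in C57Bl6/N (log2 fold change 0.88 ± 0.22 SE, adjusted p = 0.00676). Higher Schwann cell markers numbered 4 with library totals and 1 without C57Bl6/N library 1 or without DBA/2J library S40, in place of 2. Krt18, a keratin, was the 1 called gene of 7 epicardial and mesothelial markers (2.26 to 4.59 CPM in DBA/2J against 0.765 to 1.38 CPM in C57Bl6/N; log2 fold change 1.87 ± 0.30 SE, adjusted p = 2.26e-04). Higher epicardial markers numbered 3 with library totals or limma-voom or in the fit of ligated libraries alone or without the 3 shallowest untreated libraries or without C57Bl6/N library 4, in place of 1. The median of these 7 was 0.37, and 1.05 without C57Bl6/N library 4. None of 6 adipocyte markers was called. Both tested erythroid markers, Alas2 and Slc4a1, were lower, with overlap between the strains. Alas2, of heme synthesis in red cells, had 9.77, 5.86, 9.38 and 17.7 CPM in DBA/2J against 35.3, 20.3, 14.4 and 19.9 CPM in C57Bl6/N (log2 fold change -1.08 ± 0.32 SE, adjusted p = 0.0241). Its adjusted p was 0.11 without C57Bl6/N library 1, 0.0674 without DBA/2J library 1, 0.0811 without DBA/2J library S40, 0.0709 without DBA/2J library S41, and 0.0771 in a fit of the 8 ligated libraries alone. Slc4a1, the anion exchanger of red cells, had 0.166, 0.0611, 0.387 and 0.865 CPM in DBA/2J against 2.98, 1.34, 0.956 and 0.725 CPM in C57Bl6/N (log2 fold change -2.06 ± 0.59 SE, adjusted p = 0.0199), and its adjusted p was 0.124 without C57Bl6/N library 1, 0.0733 without DBA/2J library 1, 0.0598 without DBA/2J library S40. The log2 fold change of Slc4a1 was -1.43 without C57Bl6/N library 1 and -2.83 without DBA/2J library S42.

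Cell division genes were lower in 6 of 32 cases and higher in none, against 8.81% and 10.6% of all genes. Their median was -0.05 (0.05 with library totals). Rrm2, a subunit of ribonucleotide reductase, had 5.22, 2.38, 6.62 and 5.90 CPM in DBA/2J against 15.1, 6.17, 9.43 and 20.3 CPM in C57Bl6/N (log2 fold change -1.33 ± 0.31 SE, adjusted p = 0.00463), with overlap between the strains. Mcm6, of the replicative helicase, had 12.8, 4.82, 10.4 and 10.4 CPM in DBA/2J against 18.4, 15.4, 15.7 and 16.8 CPM in C57Bl6/N (log2 fold change -0.78 ± 0.21 SE, adjusted p = 0.0138). Lower cell division genes numbered 3 without DBA/2J library S40 and 2 without C57Bl6/N library 4, in place of 6. The median was 0.08 without C57Bl6/N library 4 and 0.12 without DBA/2J library S40. Heat shock and unfolded protein genes were lower in 6 of 35 cases, against 8.81% of all genes, with a median of -0.11 (0.00 with library totals). Cryab, the small heat shock protein of muscle, had 959, 838, 759 and 935 CPM in DBA/2J against 1139, 1415, 1445 and 1412 CPM in C57Bl6/N (log2 fold change -0.63 ± 0.11 SE, adjusted p = 6.37e-04). Hspa8, a chaperone made in all cells, had 829.7, 757, 820.3 and 807 CPM in DBA/2J against 1104, 1208, 1028 and 1525 CPM in C57Bl6/N (log2 fold change -0.60 ± 0.11 SE, adjusted p = 7.31e-04). Lower genes numbered 10 in the fit of ligated libraries alone, 3 without C57Bl6/N library 2 or 4 or without DBA/2J library 1 or S40 and 2 with library totals or without DBA/2J library S41 or S42, in place of 6.

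Immediate early genes were lower in 3 of 23 cases (Ier3, Nr4a1 and Nr4a3), against 8.81% of all genes. Higher genes numbered 3 in the fit of ligated libraries alone and 2 with library totals or without the 3 shallowest untreated libraries, in place of none. Lower genes numbered 1 without C57Bl6/N library 4, in place of 3. The adjusted p of Nr4a1, 0.0305, was 0.111 without C57Bl6/N library 3, 0.0976 without C57Bl6/N library 4, 0.0615 without DBA/2J library 1, 0.0844 without DBA/2J library S40, 0.0778 without DBA/2J library S41, 0.0589 without DBA/2J library S42, 0.0747 with limma-voom and 0.0682 in the fit of ligated libraries alone. That of Nr4a3, 0.0134, was 0.0745 without C57Bl6/N library 4 and 0.0808 in the fit of ligated libraries alone. Ier3 had 16.1, 14.7, 13.4 and 13.5 CPM in DBA/2J against 33.6, 29.7, 27.8 and 27.02 CPM in C57Bl6/N (log2 fold change -1.03 ± 0.20 SE, adjusted p = 0.00112). Cardiac transcription factors were lower in 3 of 22 cases (Irx3, Irx5 and Foxo3), against 8.81% of all genes. Lower transcription factors numbered 7 in the fit of ligated libraries alone or without the 3 shallowest untreated libraries, in place of 3. Irx5, an Iroquois factor that shapes repolarization across the ventricular wall, had 12.1, 10.3, 14.3 and 10.8 CPM in DBA/2J against 22.8, 25.7, 22.3 and 18.3 CPM in C57Bl6/N (log2 fold change -0.90 ± 0.14 SE, adjusted p = 1.13e-04). Irx3, which acts in the conduction system, had 40.6, 39.7, 45.1 and 42.8 CPM in DBA/2J against 67.5, 70.6, 72.4 and 51.1 CPM in C57Bl6/N (log2 fold change -0.64 ± 0.13 SE, adjusted p = 0.00173). Of 17 mineralization and pyrophosphate genes 4 were higher and 2 lower, against 10.6% and 8.81% of all genes. Higher genes numbered 2 without DBA/2J library S40, in place of 4. Lower genes numbered 1 with library totals or without C57Bl6/N library 3 or 4 or without DBA/2J library 1, S40, S41 or S42, in place of 2. Slc20a1, a phosphate importer, had 20.8, 16.5, 16.7 and 17.7 CPM in DBA/2J against 13.1, 8.33, 10.6 and 11.4 CPM in C57Bl6/N (log2 fold change 0.72 ± 0.17 SE, adjusted p = 0.00561). Nt5e, which makes adenosine from AMP, was lower, with overlap, at 14.4, 16.2, 13.97 and 12.9 CPM in DBA/2J against 18.2, 16.1, 21.5 and 23.5 CPM in C57Bl6/N (log2 fold change -0.46 ± 0.12 SE, adjusted p = 0.00904). DBA/2 hearts are known for calcification after injury, and the size of calcified tissue was not measured here.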

How the data were processed

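Whole-number read counts per gene of 16 libraries were taken as the authors deposited them; the submitters' processing notes name STAR 2.5.2b as the aligner, mm10 as the genome build and Subread 1.5.1, whose featureCounts gives reads per gene. Neither the strand setting nor the annotation is given in the sources used here, so overlapping and antisense genes cannot be told apart. The authors' deposited table also holds their log2 fold changes and their p-values and FDR values for the same comparison, per the file headers, and these were used only to count shared calls: of 2624 genes called here, 2621 were under an FDR of 0.05 in the authors' deposited table with the same direction, whereas their table called 3060 of the genes tested here, of which 85.7% were called here. Another 16 columns of per-sample values were not used. In the columns of 3 DBA/2J ligated hearts the mouse number and the S index do not point to the same label. These columns were assigned to their group only.

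Genes were tested with the quasi-likelihood test of edgeR 4.0.16 in R 4.3.3 on the counts, with TMM scaling, its filter on low counts by group (13504 of 13842 genes kept), 1 term per group over all 16 libraries and robust dispersion, 2-sided. P-values were adjusted by Benjamini and Hochberg within each comparison, and a gene was called under 0.05. Standard errors are the fold change divided by the square root of F. The script was tested on simulated counts. No label says more than that the replicates are biological, so p-values measure the spread between these libraries. Bounds of genes with 0 counts in a group use a floor of 3 counts over that group. Ratios of genes with 1 to 3 counts in a group have exact 95% binomial intervals, from the split of the counts between the strains. Bounds and intervals cover counting error only. An exact permutation test of the depths of the ligated strains gave a 2-sided p of 0.429, where the smallest possible is 0.0286.

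Genes were named by 1 rule. Among called genes without overlap it took, per direction, the 10 with the largest fold change at a mean of 2 CPM and the 6 with the highest mean at 50 CPM and 2-fold. It also took genes called in the interaction (none). From each list it took up to 4 called members with the smallest p, plus any needed to show both directions, with or without overlap. All tested members of the strain list and the stress panel were named, called or not. Others are said to be chosen later. Some genes that the rule names are not reported here. The gene lists and the comparison were chosen with earlier results of these data known. Alternatives were other scalings (RLE, library totals), DESeq2 1.42.0, limma-voom 3.58.1, other filters, fits of fewer libraries, a replicate block, and leaving out each library.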

Additional observations from a re-analysis of the deposited data

Results flagged for a closer look

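For each named gene the 4 values of each ligated group were searched for 1 library whose gap to the nearest of the others exceeds Dixon's 95% critical share of the group's range. Of 322 groups tested 14 were marked, and chance alone marks about 1 in 20 groups, so no pattern is read from the number of marks.

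In the C57Bl6/N hearts 5 values were marked. For Myh7, C57Bl6/N library 1 was at 2759.8 CPM and the others at 915 to 969 CPM (gap 0.971 of the range). For Arntl, C57Bl6/N library 4 was at 17.1 CPM and the others at 3.79 to 5.15 CPM (gap 0.898 of the range). For Acta2, C57Bl6/N library 3 was at 349 CPM and the others at 159 to 178 CPM (gap 0.898 of the range). For Bcat2, C57Bl6/N library 2 was at 88.99 CPM and the others at 63.8 to 67.6 CPM (gap 0.848 of the range). For Cryab, C57Bl6/N library 1 was at 1139 CPM and the others at 1412 to 1445 CPM (gap 0.892 of the range). Without its library 4 the strain difference of Arntl was 2.59 (log2), without its library 1 that of Myh7 was 1.08, and without its library 3 that of Acta2 was 2.21.

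In the DBA/2J hearts 9 values were marked. For H2-Q2, DBA/2J library S42 was at 2.97 CPM and the others at 1.69 to 1.74 CPM (gap 0.964 of the range). For C1s2, DBA/2J library 1 was at 7.74 CPM and the others at 6.60 to 6.78 CPM (gap 0.844 of the range). For Tnni3k, DBA/2J library 1 was at 39.003 CPM and the others at 41.5 to 41.7 CPM (gap 0.940 of the range). For Nr4a3, DBA/2J library 1 was at 5.51 CPM and the others at 2.33 to 2.66 CPM (gap 0.895 of the range). For Mlycd, DBA/2J library S40 was at 63.98 CPM and the others at 51.3 to 53.4 CPM (gap 0.831 of the range). For Slc16a3, DBA/2J library S41 was at 6.48 CPM and the others at 4.76 to 4.93 CPM (gap 0.903 of the range). For Smtn, DBA/2J library S41 was at 130.1 CPM and the others at 115 to 117 CPM (gap 0.831 of the range). For Aqp1, DBA/2J library S42 was at 232 CPM and the others at 185 to 191 CPM (gap 0.888 of the range). For Dbp, DBA/2J library S42 was at 27.9 CPM and the others at 37.5 to 39.3 CPM (gap 0.848 of the range). The marked libraries were library 1 in 3 genes, S40 in 1, S41 in 2 and S42 in 3.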

How the results depend on the processing

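In ligated hearts 1390 to 1622 genes were higher and 1195 to 1490 lower under RLE scaling, DESeq2, limma-voom, no filter on low counts and a stricter filter, all within 1.5 times the reported 1434 and 1190. Scaling by library totals gave 2169 higher and 764 lower, a fit of the 8 ligated libraries alone 2097 and 2065, and the fit without the 3 shallow untreated libraries 2220 and 2122. Leaving out 1 library gave 1135 to 1332 higher and 906 to 1074 lower. In untreated hearts their own 8 libraries gave 930 higher and 682 lower, and leaving out 1 library 1245 to 2100 and 989 to 1931. The interaction had 3 positive and 14 negative genes with DESeq2, 0 positive and 1 negative without the 3 shallow untreated libraries, and 0 in each fit without 1 library. The causes of these shifts were not tested. Untreated libraries of the same number did not deviate together between the strains (correlations -0.21, -0.04, -0.08 and -0.18). Ligated libraries were not compared in this way. Only the numbered libraries could enter a replicate block, which gave 1013 higher and 860 lower genes in untreated hearts. No block could be fitted for ligated hearts, since 3 of the 4 DBA/2J columns could not be matched to a single label. Of 162 named genes called in ligated hearts, 132 were called under each alternative with a value. Of the named genes' fold changes under alternatives, 2722 kept their direction and their side of the threshold, 128 lost the call, 12 gained one and 0 of those called changed direction. Of the medians of lists under alternatives, 629 moved by less than the spread between replicates and 11 by more. Levels under 1 CPM rest on few counts.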

Other observations

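Several genes were chosen after their values were seen, and they are given as descriptions. Beside Mcpt2, 4 other genes of mast cell granules were higher in the ligated DBA/2J hearts. Mcpt4, a chymase, had 5.51, 6.23, 3.77 and 6.87 CPM in DBA/2J against 1.36, 1.12, 1.34 and 1.05 CPM in C57Bl6/N (log2 fold change 2.18 ± 0.21 SE, adjusted p = 6.28e-07). Cma1, the other chymase, had 4.14, 3.85, 4.45 and 5.41 CPM in DBA/2J against 1.49, 1.41, 0.828 and 0.923 CPM in C57Bl6/N (log2 fold change 1.92 ± 0.31 SE, adjusted p = 2.05e-04). Cpa3, a carboxypeptidase, had 3.81, 3.54, 3.82 and 4.22 CPM in DBA/2J against 1.40, 0.669, 1.66 and 1.38 CPM in C57Bl6/N (log2 fold change 1.56 ± 0.35 SE, adjusted p = 0.00349). Tpsb2, a tryptase, was at 1.84 to 2.99 CPM in DBA/2J against 0.588 to 1.66 CPM in C57Bl6/N (log2 fold change 1.28 ± 0.35 SE, adjusted p = 0.0142), and its adjusted p was 0.0556 without C57Bl6/N library 1. Kit, the receptor of stem cell factor that mast cells carry, had 17.02, 14.4, 15.8 and 20.9 CPM in DBA/2J against 15.7, 14.6, 17.1 and 15.5 CPM in C57Bl6/N and was not called (log2 fold change 0.11 ± 0.17 SE, adjusted p = 0.71).

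Another 6 genes with large differences, which belong to no list, were higher in DBA/2J. Atp6v0d2, a proton pump subunit of osteoclasts and macrophages, had 14.2, 18.1, 12.8 and 10.01 CPM in DBA/2J against 0.271, 0.520, 0.765 and 0.264 CPM in C57Bl6/N (log2 fold change 4.94 ± 0.46 SE, adjusted p = 4.28e-07). Ctsk, cathepsin K, which digests collagen, had 30.5, 30.3, 34.04 and 28.3 CPM in DBA/2J against 10.2, 6.69, 11.9 and 8.57 CPM in C57Bl6/N (log2 fold change 1.71 ± 0.24 SE, adjusted p = 4.05e-05). Acp5, tartrate-resistant acid phosphatase, had 5.59, 6.17, 7.69 and 5.35 CPM in DBA/2J against 1.36, 0.743, 1.40 and 0.725 CPM in C57Bl6/N (log2 fold change 2.51 ± 0.29 SE, adjusted p = 5.21e-06). Stab2, a scavenger receptor for hyaluronan, had 52.7, 28.6, 41.9 and 36.2 CPM in DBA/2J against 0.542, 0.372, 0.956 and 0.923 CPM in C57Bl6/N (log2 fold change 5.83 ± 0.41 SE, adjusted p = 1.11e-08). Kcnj14, a potassium channel, had 73.99, 70.8, 75.8 and 77.1 CPM in DBA/2J against 2.44, 2.08, 1.78 and 1.12 CPM in C57Bl6/N (log2 fold change 5.29 ± 0.20 SE, adjusted p = 7.09e-12). Fmn1, formin 1, which builds actin filaments, had 122, 141, 114 and 123 CPM in DBA/2J against 4.29, 1.64, 4.33 and 5.01 CPM in C57Bl6/N (log2 fold change 5.01 ± 0.28 SE, adjusted p = 5.20e-10).

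Mlana and Pax1 were high in 2 of the 4 DBA/2J hearts. Mlana, a melanocyte antigen, had 17.9, 15.9, 0.242 and 0.216 CPM in DBA/2J against 0, 0.0743, 0.510 and 0 CPM in C57Bl6/N, and Pax1, a transcription factor of the skeleton and thymus, had 5.47, 9.10, 0 and 0.0541 CPM in DBA/2J against 0, 0, 0 and 0 CPM in C57Bl6/N. In both genes the DBA/2J hearts 1 and S40 held nearly all of the signal. The adjusted p of Mlana was 0.00309 with edgeR and 0.165 with limma-voom, and that of Pax1 0.011 and 0.126. Without the 3 shallowest untreated libraries the adjusted p of Pax1 was 0.0812. The share of called genes was 13.2% on chromosome X (60 of 456) and 25.3% on chromosome 1 (201 of 795), against 19.4% over all chromosomes.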
